A study of Homo sapiens with 12 samples.

Results

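miR-155 and miR-146 are microRNAs (miRNAs) of inflammatory signalling. The 4 arms described here were chosen by name, as the mature products of these families linked to the transcription factor NF-kB, namely hsa-miR-155-5p, hsa-miR-155-3p, hsa-miR-146a-5p and hsa-miR-146b-5p. They are 4 of the 1204 human mature miRNAs in the deposited count table, and all 4 were among the 659 that passed the filter on low counts. Small RNA was sequenced from MV4-11 and Molm-14, human acute myeloid leukemia (AML) cell lines grown in medium with sodium pyruvate. Both have the FLT3 internal tandem duplication. In each line, cells in which CRISPR/Cas9 delivered by a lentiviral vector had deleted MPC1 (MPC1 KO) were compared with cells carrying the nontargeting Empty Vector (EV). The MPC1 protein forms part of the carrier that brings pyruvate into mitochondria. Small RNA libraries do not hold its mRNA, so the deletion was not checked here. The 12 libraries fell into 4 groups of 3. One guide against MPC1 was used, and whether the KO cells were a single clone or a pool is not given in the sources used here. Neither is whether replicate libraries were grown as separate cultures, so the p-values measure only the spread between these libraries, which may be technical.

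A miRNA hairpin is cut into a 5p and a 3p arm, and one arm is usually kept in the Argonaute complex, where bases 2 to 8, the seed, pair with target mRNAs. miR-155 is known to be induced by NF-kB and by Toll-like receptor signals, to restrain negative regulators such as SHIP1 and SOCS1, and to be elevated in AML with the FLT3 internal tandem duplication. miR-146a is also induced by NF-kB and represses TRAF6 and IRAK1, adaptors upstream of NF-kB, which is why it is described as a feedback brake on the pathway that miR-155 amplifies. miR-146b is a second miR-146 gene on another chromosome whose 5p arm has the same seed.

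The mature sequences, from the RefSeq annotation of GRCh38.p14, are shown with the seed in capitals because the pair of miR-146 5p arms can be told apart only outside the seed. The 3p arms of miR-146a and miR-146b are included since they report on the same hairpins through different letters.
hsa-miR-155-5p: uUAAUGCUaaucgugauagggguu
hsa-miR-155-3p: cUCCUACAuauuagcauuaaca
hsa-miR-146a-5p: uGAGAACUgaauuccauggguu
hsa-miR-146b-5p: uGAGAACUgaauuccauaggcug
hsa-miR-146a-3p: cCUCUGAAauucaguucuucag
hsa-miR-146b-3p: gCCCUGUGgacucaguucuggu

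miR-146a-5p and miR-146b-5p were identical at 20 of the 22 positions that could be compared, counted from 1 at the 5′ end. The changes from miR-146a-5p to miR-146b-5p were G18A and U21C, so the first 17 bases were the same. Their 3p arms were identical at 6 of 22 positions without gaps. Among the 1068 miRNAs of the table whose names matched RefSeq, no other one had the miR-155-5p seed, and miR-146a-5p and miR-146b-5p shared theirs only with each other. The hairpins are printed with both arms in capitals, first MIR146A and then MIR146B, to show how the arms lie in them.
MIR146A: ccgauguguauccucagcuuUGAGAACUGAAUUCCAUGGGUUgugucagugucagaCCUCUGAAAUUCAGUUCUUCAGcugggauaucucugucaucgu
MIR146B: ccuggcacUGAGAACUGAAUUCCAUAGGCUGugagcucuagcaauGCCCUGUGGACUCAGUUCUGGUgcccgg

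Each arm has a single locus in GRCh38. miR-155-5p lies at chr21:25573983-25574006 and miR-155-3p at chr21:25574022-25574043, both on the plus strand, in an exon of the long non-coding RNA MIR155HG in both of its overlapping transcripts in the GENCODE annotation. miR-146a-5p lies at chr5:160485372-160485393 on the plus strand, in an exon of the long non-coding RNA MIR3142HG. miR-146b-5p lies at chr10:102436520-102436542 on the plus strand, where no annotated gene other than MIR146B overlaps it.

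The libraries held between 3870104 and 8683456 counted reads (median 5107201), and the deepest was MV4-11 EV replicate 1. All replicate pairs differed beyond counting noise (chi-square per degree of freedom 11.4 to 154 over 12 pairs), and none was deposited in duplicate. The 5 haematopoietic miRNAs used to check the cell type summed to between 28684 and 68304 CPM (counts scaled to a common library size with TMM factors). Among them miR-142-3p, a blood cell miRNA, was at 17275 CPM or more and miR-223-3p, a myeloid miRNA, at 2677 CPM or more in every library, but miR-181a-5p had only 0 to 8 counts. RefSeq places miR-181a-5p at 2 loci, and how reads that match several loci were counted is not given in the sources used here. Of 9 markers of erythroid, lymphoid, endothelial, epithelial, liver and endocrine cells, 8 were matched in the table, all but the endocrine miR-375-3p. Their sum was between 4300 and 6413 CPM, nearly all from miR-126-3p, an endothelial miRNA also found in leukemic stem cells, at 4171 to 6162 CPM. The epithelial miR-200c-3p was at 104 to 256 CPM, and the others were at 9.57 CPM or less.

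Both lines held miR-155-5p among their most abundant miRNAs. The CPM scale needs no correction for length since a read covers a whole mature miRNA, although reads of different sequences need not reflect molecules alike. In MV4-11 EV the 3 libraries had 48649, 36536 and 32410 CPM of miR-155-5p, and in the KO cells they had 40424, 33058 and 41152. In Molm-14 EV they had 26476, 27406 and 29367 CPM, and in the KO cells of that line 37633, 39521 and 42516. The Molm-14 EV libraries lay below all the others, while the remaining 3 groups overlapped. miR-155-5p ranked between 7th and 11th in every library and took 2.66% of the counted reads in Molm-14 EV, against 3.88% in the KO cells of that line and 4.10% and 4.02% in the EV and KO cells of MV4-11.

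miR-155-3p, the arm that is mostly discarded, was scarce in every library. The MV4-11 EV libraries had 8.88, 12.2 and 10.8 CPM of it, from 45 to 73 counts, and the KO libraries of that line 7.0, 8.0 and 12 CPM, from 36 to 68 counts. For Molm-14 the EV libraries had 14.4, 12.5 and 13.9 CPM, from 47 to 72 counts, and the KO libraries 26.6, 23.7 and 24.4 CPM, from 104 to 148 counts. The highest group was thus Molm-14 MPC1 KO, followed by Molm-14 EV, both apart from the MV4-11 groups, which overlapped each other.

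miR-146a-5p, the feedback arm, separated the lines most widely. The MV4-11 EV libraries had 4345, 4054 and 3799 CPM and the MPC1 KO libraries 3330, 3146 and 3710. For Molm-14 the EV libraries had 207, 184 and 204 CPM and the MPC1 KO libraries 120, 111 and 126. The 4 groups did not overlap, MV4-11 being above Molm-14 and, within each line, EV above KO. In counts, miR-146a-5p had 538 reads or more in every library.

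miR-146b-5p ran the other way between the lines. It had 5932, 4359 and 3623 CPM in MV4-11 EV and 3489, 2675 and 3221 in MV4-11 MPC1 KO. It had 30054, 22651 and 31183 CPM in Molm-14 EV and 25822, 26877 and 26823 in the KO cells of that line. The Molm-14 groups overlapped each other and lay above MV4-11 EV, which lay above MV4-11 MPC1 KO. In Molm-14 EV it was level with miR-155-5p, with overlapping libraries, at ranks 8 to 11. In MV4-11 it ranked 25 to 43 and overlapped miR-146a-5p.

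**Figure D1:**
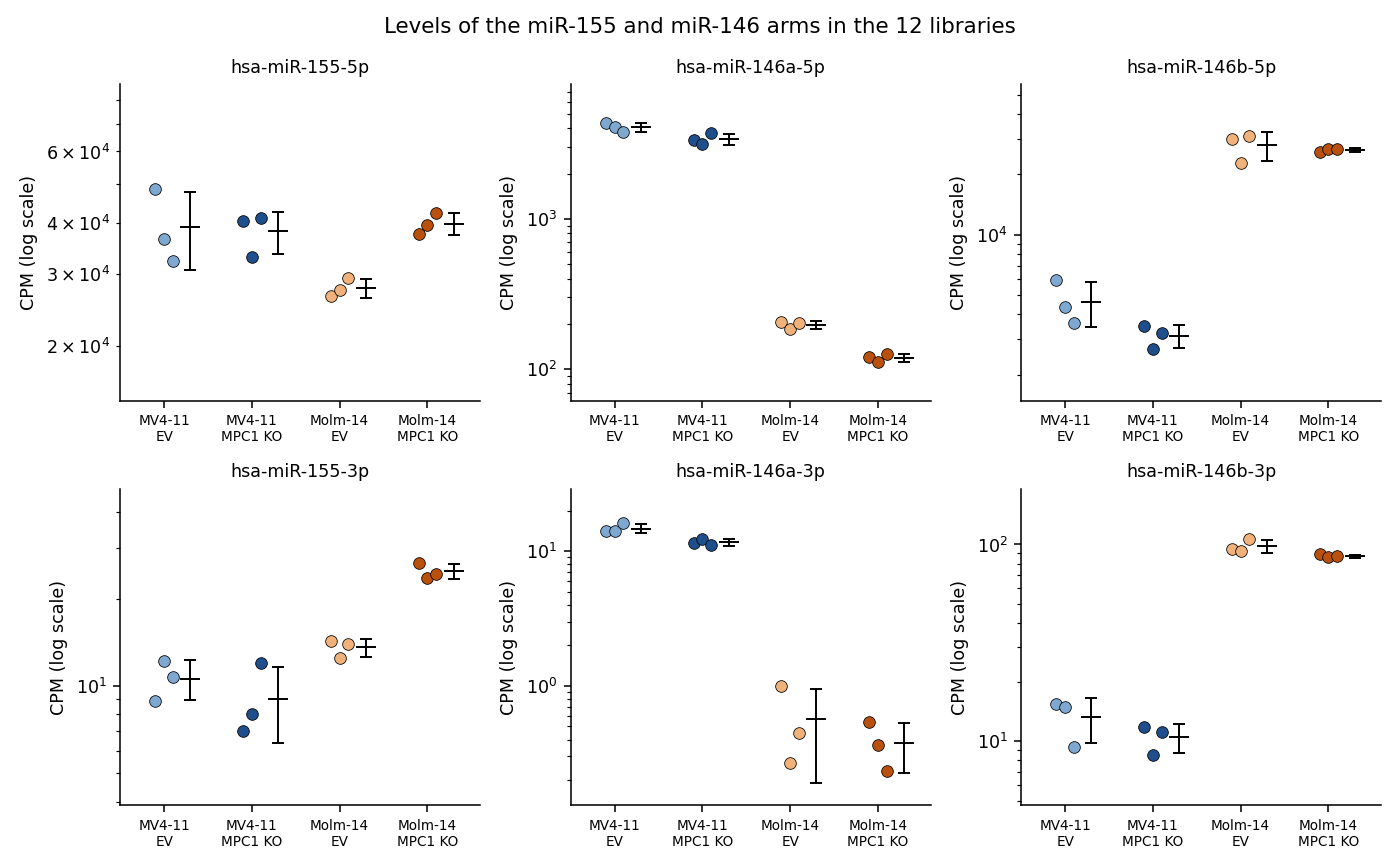
Level of each arm in CPM after TMM scaling (log axis) in the 12 libraries, with points for single libraries and bars for the mean and SD of 3 libraries a group. miR-146a-5p sits at 3146 to 4345 CPM for MV4-11 and at 111 to 207 for Molm-14, miR-146b-5p is higher in Molm-14, and both miR-155 arms are higher in Molm-14 MPC1 KO than in Molm-14 EV.

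The first question was how the lines differed at baseline. Between the EV controls, 3 of the 4 arms passed an adjusted p of 0.05 (edgeR's quasi-likelihood test, Benjamini-Hochberg over 659 miRNAs), in a comparison where 61.9% of all tested miRNAs did so. miR-146a-5p was 20.5-fold lower in Molm-14 EV (log2 fold change -4.36, SE 0.11, adjusted p = 6.235e-21, edgeR), and 16 of the 659 miRNAs were further down. In bulk libraries like these, fewer cells with a miRNA and less of it per cell cannot be told apart. miR-146b-5p was 6.03-fold higher (log2 2.59, SE 0.17, adjusted p = 3.8e-10, edgeR), with 51 miRNAs further up. miR-155-5p was 1.41-fold lower (log2 -0.50, SE 0.12, adjusted p = 0.001328, edgeR), all 3 libraries below those of MV4-11 EV. miR-155-3p did not pass (log2 0.38, SE 0.21, adjusted p = 0.1172, edgeR). Its lowest Molm-14 EV library, at 12.5 CPM, lay just above its highest MV4-11 EV library, at 12.2 CPM. The share of all tested miRNAs whose libraries did not overlap between the EV controls is not given here.

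The opposite arms of the miR-146 hairpins were split between the lines like the 5p arms. miR-146b-3p, with 348 to 476 counts in the Molm-14 EV libraries and 39 to 127 in MV4-11 EV, was 7.25-fold higher in Molm-14 EV (log2 2.86, adjusted p = 1.141e-13, edgeR). miR-146a-3p had 115, 62 and 67 counts in the MV4-11 EV libraries and 5, 1 and 2 in Molm-14 EV. Summed over libraries this was 244 against 8 counts, a 24.7-fold difference with an exact 95% interval of 12.3 to 57.9 that covers counting error only. The 3p arms share a run of at most 8 bases, and for them the lines stood apart in the same directions. Reads that carry only the shared part of the 5p arms could fall to either gene. Their part in the 5p values was not tested, and the 3p counts do not show how 5p reads were divided.

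**Figure D2:**
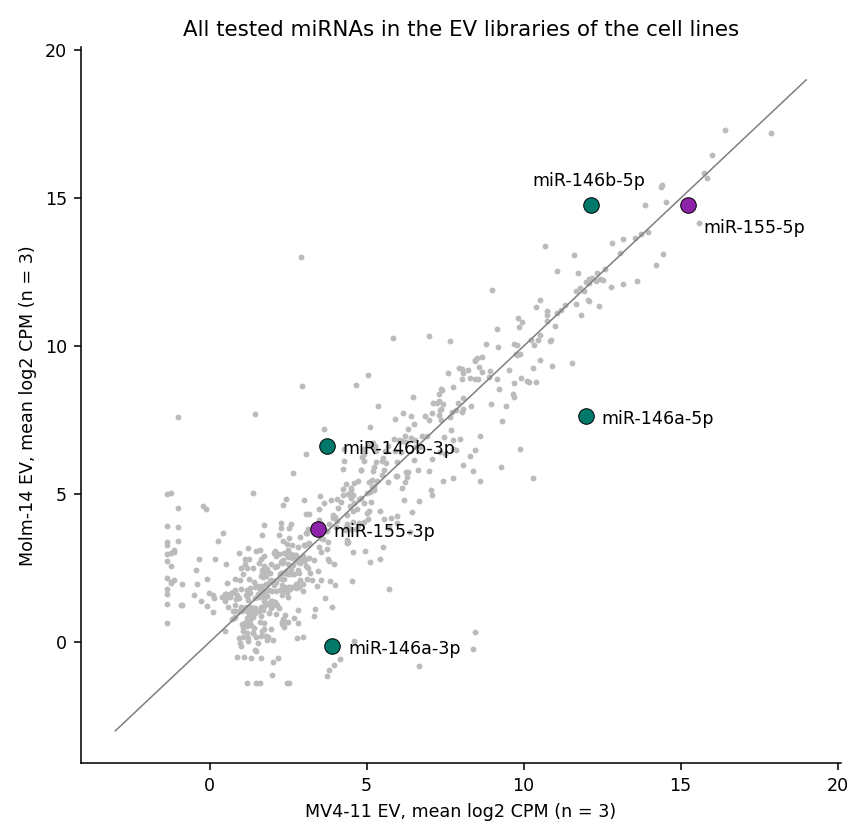
Mean log2 CPM of each of the 659 tested miRNAs in the MV4-11 EV libraries (horizontal axis) and the Molm-14 EV libraries (vertical axis), n = 3 each, with the miR-155 and miR-146 arms named and a line of equal level. Both miR-146a arms lie below the line and both miR-146b arms above it, while the miR-155 arms lie close to it.

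In the MPC1 KO cells 3 of 4 arms also differed between the lines, where 62.4% of all tested miRNAs did. miR-146a-5p was 28.5-fold lower in Molm-14 MPC1 KO than in MV4-11 MPC1 KO (log2 -4.83, SE 0.11, adjusted p = 4.301e-21, edgeR) and miR-146b-5p 8.47-fold higher (log2 3.08, SE 0.17, adjusted p = 4.555e-11, edgeR). miR-155-3p was 2.75-fold higher (log2 1.46, SE 0.20, adjusted p = 6.729e-07, edgeR). miR-155-5p overlapped between the KO cells of the lines, with a log2 difference of 0.06 (SE 0.12, adjusted p = 0.6873, edgeR), and this sign turned with the scaling, to -0.05 with total counts. The 3p arm of miR-146a held 196 counts in the MV4-11 MPC1 KO libraries together and 6 in Molm-14 MPC1 KO, a 32.1-fold difference (exact 95% counting interval 14.5 to 88.7).

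Among the 1068 miRNAs matched to RefSeq, only the miR-146 5p arms had their seed, and the other names were not checked. The sum of both arms was therefore taken as the reads with that seed. For MV4-11 it was 8704 ± 1450 CPM with EV and 6523 ± 611 with MPC1 KO (SD, n = 3). For Molm-14 it was 28161 ± 4647 with EV and 26626 ± 593 with MPC1 KO. miR-146a-5p made up 47.2 ± 4.53% and 52.1 ± 2.87% of it in the EV and KO cells of MV4-11, and 0.712 ± 0.0822% and 0.448 ± 0.0305% in those of Molm-14. The seed was thus split nearly evenly between both genes in MV4-11 and came almost wholly from miR-146b in Molm-14. The sum, added after the separate values were seen, was 3.21-fold higher in Molm-14 EV than in MV4-11 EV (log2 1.68, SE 0.13, adjusted p = 2.495e-11, edgeR) and 4.08-fold higher in Molm-14 MPC1 KO than in MV4-11 MPC1 KO (log2 2.03, SE 0.13, adjusted p = 8.056e-13, edgeR).

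**Figure D3:**
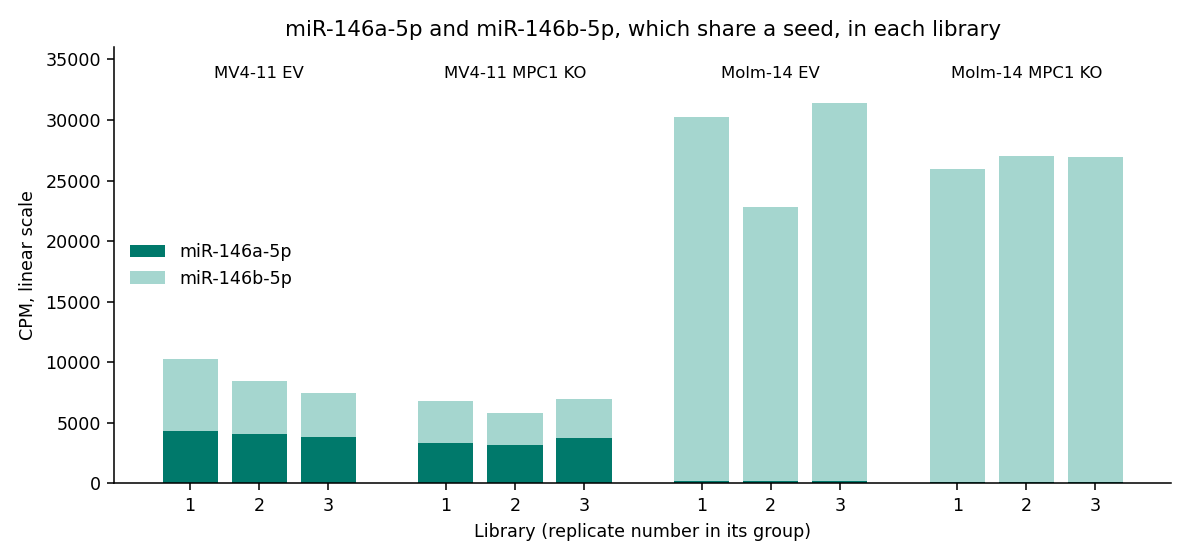
Stacked bars of miR-146a-5p and miR-146b-5p in CPM (linear axis from 0) in each of the 12 libraries, by replicate number within the group. Both genes contribute in MV4-11, and miR-146a-5p is a sliver of the bars in Molm-14.

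The second question was what deletion of MPC1 did to these arms. In MV4-11 0 of the 4 arms passed the threshold, where 3.03% of all tested miRNAs did. By unadjusted p 2 of the 4 were under 0.05, as were 14% of all tested miRNAs. By DESeq2 1 passed, with 5.4% of the miRNAs given an adjusted p, and by limma-voom 0 passed, with 3.19%. The same 2, the miR-146 5p arms, had all KO libraries below all EV libraries, where 7.13% of all tested miRNAs did. miR-155-5p overlapped (log2 -0.04, SE 0.12, adjusted p = 0.9455, edgeR). Its sign turned in 5 of 12 fits with a library left out, reaching 0.14 without MV4-11 EV replicate 1, the deepest library. It also turned when total counts replaced TMM (0.04). miR-155-3p overlapped as well (log2 -0.21, SE 0.21, adjusted p = 0.7297, edgeR). Both miR-146 5p arms had lower values in every MPC1 KO library, with a log2 change of -0.26 for miR-146a-5p (SE 0.09, adjusted p = 0.139, edgeR) and -0.57 for miR-146b-5p (SE 0.16, adjusted p = 0.06118, edgeR).

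The miR-146b-5p value in MV4-11 was close to the threshold and its call moved with the processing. It passed in 7 of 9 other settings, by DESeq2 with an adjusted p of 0.01199 and with the replicate number as a block with 0.01581. Without MV4-11 EV replicate 3, its lowest EV library, the log2 change was -0.73 (adjusted p = 0.00254, edgeR), and this was the only 1 of 12 fits with a library left out that passed. Over these fits the log2 change lay between -0.73 and -0.36 and the adjusted p reached 0.1835. The opposite arms did not pass, with log2 changes of -0.33 for miR-146a-3p and -0.37 for miR-146b-3p (SE 0.20 and 0.18, adjusted p = 0.5324 and 0.3914, edgeR). The summed 5p arms were at -0.43 (SE 0.12, adjusted p = 0.05827, edgeR), and passed without MV4-11 EV replicate 3 (-0.53, adjusted p = 0.01347) and without Molm-14 EV replicate 2 (-0.42, adjusted p = 0.01492), in 2 of 12 such fits, with upper-quartile scaling (-0.53, adjusted p = 0.02062) and with the replicate block (-0.43, adjusted p = 0.04029).

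In Molm-14 the miR-155 arms rose and miR-146a-5p fell in the MPC1 KO cells. Here 3 of the 4 arms passed the threshold, against 6.83% of all tested miRNAs, and the same 3 had libraries that did not overlap between the groups, against 27.2%. miR-155-5p rose 1.44-fold (log2 0.52, SE 0.12, adjusted p = 0.007319, edgeR), with every KO library above every EV library. miR-155-3p rose 1.82-fold (log2 0.87, SE 0.19, adjusted p = 0.004465, edgeR), also without overlap, and 21 of the 659 miRNAs had a higher log2 value. miR-146a-5p fell by 0.74 on the log2 scale (SE 0.10, adjusted p = 1.891e-05, edgeR), from a mean of 198 ± 12.4 CPM to 119 ± 7.43 (SD, n = 3), and 30 miRNAs had a lower log2 value.

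miR-146b-5p, the abundant miR-146 of Molm-14, overlapped between EV and MPC1 KO (log2 -0.08, SE 0.16, adjusted p = 0.8683, edgeR). Its estimate turned to 0.02 without Molm-14 EV replicate 3. Neither opposite miR-146 arm passed, with log2 changes of -0.17 for miR-146b-3p (SE 0.14, adjusted p = 0.5736, edgeR) and -0.59 for miR-146a-3p (SE 0.63, adjusted p = 0.7342, edgeR), the latter from 1 to 5 counts a library, too few to tell whether it moved with its 5p arm. The sum with the miR-146 seed was likewise close to its EV level (log2 -0.08, SE 0.12, adjusted p = 0.8046, edgeR). The 3 changes that passed also passed in all 12 fits with a library left out and in every other setting in which the arm was tested. miR-155-3p was not tested with the filter on a mean of at least 100 counts. Over the libraries left out, the log2 change was 0.49 to 0.58 for miR-155-5p, 0.83 to 0.92 for miR-155-3p and -0.77 to -0.67 for miR-146a-5p.

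**Figure D4:**
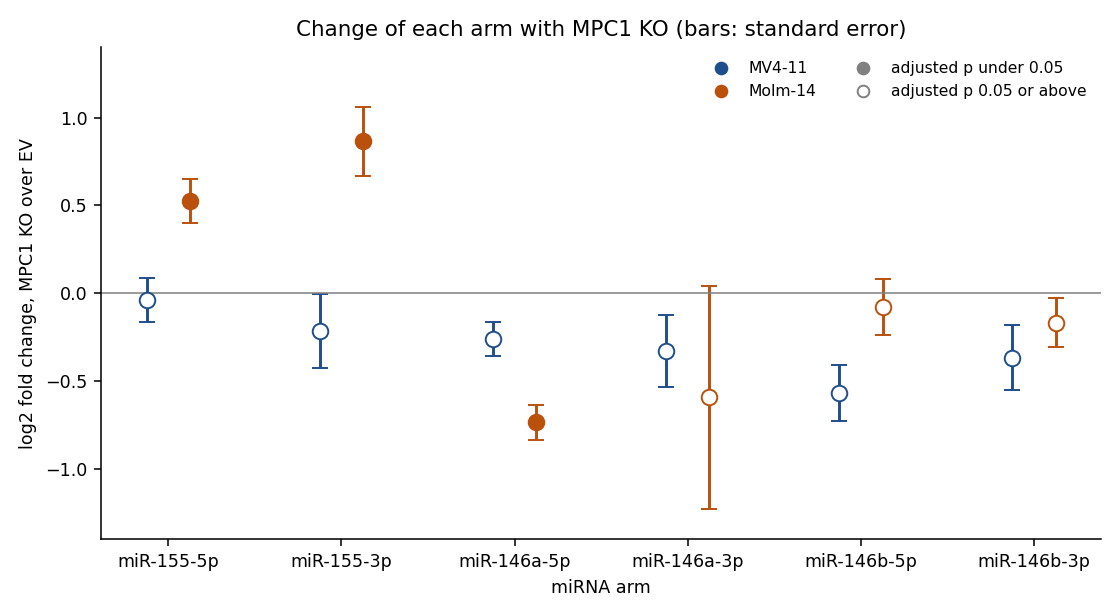
log2 fold change of MPC1 KO over EV for each miR-155 and miR-146 arm in MV4-11 and Molm-14 (n = 3 libraries a group), with standard errors as bars and filled points where the adjusted p was under 0.05. The filled points are the miR-155 arms, above 0, and miR-146a-5p, below 0, all in Molm-14.

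Whether the effect of the deletion differed between the lines was tested as the difference of both effects, Molm-14 minus MV4-11. There 2 of the 4 arms passed, against 6.68% of all tested miRNAs. The difference was 1.08 for miR-155-3p (SE 0.29, adjusted p = 0.02631, edgeR) and -0.47 for miR-146a-5p (SE 0.14, adjusted p = 0.0378, edgeR). It was 0.56 for miR-155-5p (SE 0.18, adjusted p = 0.06189, edgeR) and 0.49 for miR-146b-5p (SE 0.22, adjusted p = 0.256, edgeR), which did not pass.

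These differences were less steady than the effects in Molm-14. That of miR-155-3p kept its call in 6 of 12 fits with a library left out, and lost it without EV replicate 2 or KO replicates 1 or 2 of MV4-11 and without EV replicates 2 or 3 or KO replicate 1 of Molm-14 (adjusted p up to 0.07734). That of miR-146a-5p kept its call in 3 of 12, without EV replicate 1 or KO replicate 2 of MV4-11 or EV replicate 2 of Molm-14, and otherwise reached an adjusted p of up to 0.1592, with values of -0.52 to -0.38. With upper-quartile scaling it was -0.29 (adjusted p = 0.2826), and without a filter or with limma-voom it just missed the threshold (adjusted p = 0.05384 and 0.05248). That of miR-155-5p passed in 6 of 8 other settings and in 1 of 12 fits with a library left out, that without MV4-11 EV replicate 3 (0.70, adjusted p = 0.01127). That of miR-146b-5p passed in 1 of 8 other settings and in 1 of 12 fits, without the same library (0.66, adjusted p = 0.03209).

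The ratio of the arms of a hairpin within a library does not depend on scaling. miR-155-5p outnumbered miR-155-3p by 2988, 3009 and 5476 to 1 in the MV4-11 EV libraries, in rising order, and by 3429 to 5782 in MV4-11 MPC1 KO. The ratio was 1843 to 2186 with EV and 1415 to 1744 with MPC1 KO in Molm-14. All Molm-14 libraries thus had relatively more of the 3p arm than all MV4-11 libraries. Within genotype the ratio was 2.20-fold lower in Molm-14 (log2 -1.14, exact permutation p = 0.005, the smallest this test can give, adjusted p = 0.0263 over 21 ratio tests). With MPC1 KO the log2 ratio changed by 0.24 in MV4-11 (exact permutation p = 0.5, adjusted p = 0.583). In Molm-14 it changed by -0.34 without overlap (exact permutation p = 0.1, the smallest that 3 against 3 libraries allow, adjusted p = 0.191). The difference of these changes did not pass (-0.58, exact permutation p = 0.15 against no effect in either line, adjusted p = 0.242).

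The miR-146 hairpins had lower arm ratios in every library. miR-146b-5p outnumbered miR-146b-3p by between 244 and 388 to 1 over all 12 libraries. Its log2 ratio differed by -0.14 between the lines within genotype (exact permutation p = 0.265, adjusted p = 0.371). miR-146a-5p outnumbered miR-146a-3p by 237 to 334 to 1 in MV4-11, with a log2 change of 0.07 in the MPC1 KO cells (exact permutation p = 0.6). In Molm-14, where the 3p arm had 1 to 5 counts, the ratio was 207 to 689 and was not tested. 

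The ratio of miR-146 to miR-155 shows whether the families moved together. miR-146a-5p stood at 8.93% to 11.7% of miR-155-5p in MV4-11 EV and at 8.24% to 9.52% in MV4-11 MPC1 KO. For Molm-14 it stood at 0.671% to 0.781% with EV and at 0.282% to 0.319% with MPC1 KO. The KO values of Molm-14 were apart from the EV values, 2.39-fold lower (log2 -1.26, exact permutation p = 0.1, adjusted p = 0.191). In MV4-11 the groups overlapped (log2 -0.24, exact permutation p = 0.3, adjusted p = 0.371). The difference of these changes between the lines did not pass (-1.02, exact permutation p = 0.09 against no effect in either line, adjusted p = 0.191). Within genotype the ratio was 21.0-fold lower in Molm-14 (exact permutation p = 0.005, adjusted p = 0.0263).

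miR-146b-5p gave another picture against miR-155-5p. For MV4-11 it stood at 11.2% to 12.2% of miR-155-5p with EV and 7.83% to 8.63% with MPC1 KO, and for Molm-14 at 82.6% to 114% and 63.1% to 68.6%. The KO libraries lay below the EV libraries in both lines, by 0.52 on the log2 scale in MV4-11 and by 0.59 in Molm-14 (log2 -0.52 and -0.59, exact permutation p = 0.1 each, the smallest possible, adjusted p = 0.191). The difference of these changes between the lines was -0.06 (exact permutation p = 0.865 against no effect in either line). In MV4-11 the ratio was lower with miR-146b-5p at lower values and miR-155-5p overlapping, and in Molm-14 with miR-155-5p higher and miR-146b-5p overlapping.

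The balance of both miR-146 genes was compared last. miR-146a-5p per miR-146b-5p was 0.733 to 1.05 in MV4-11 EV and 0.954 to 1.18 in MV4-11 MPC1 KO, with overlap. For Molm-14 it was 0.653% to 0.812% with EV and 0.414% to 0.470% with MPC1 KO, without overlap (log2 -0.67, exact permutation p = 0.1, the smallest possible, adjusted p = 0.191). The change differed between the lines by -0.96 (exact permutation p = 0.01 against no effect in either line, adjusted p = 0.042). This adjusted p rose to 0.063 without MV4-11 EV replicate 1 or 2 and to 0.084 without MV4-11 MPC1 KO replicate 2 or 3. The 174-fold difference between the lines within genotype had the smallest p of this test (exact permutation p = 0.005, adjusted p = 0.0263).

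**Figure D5:**
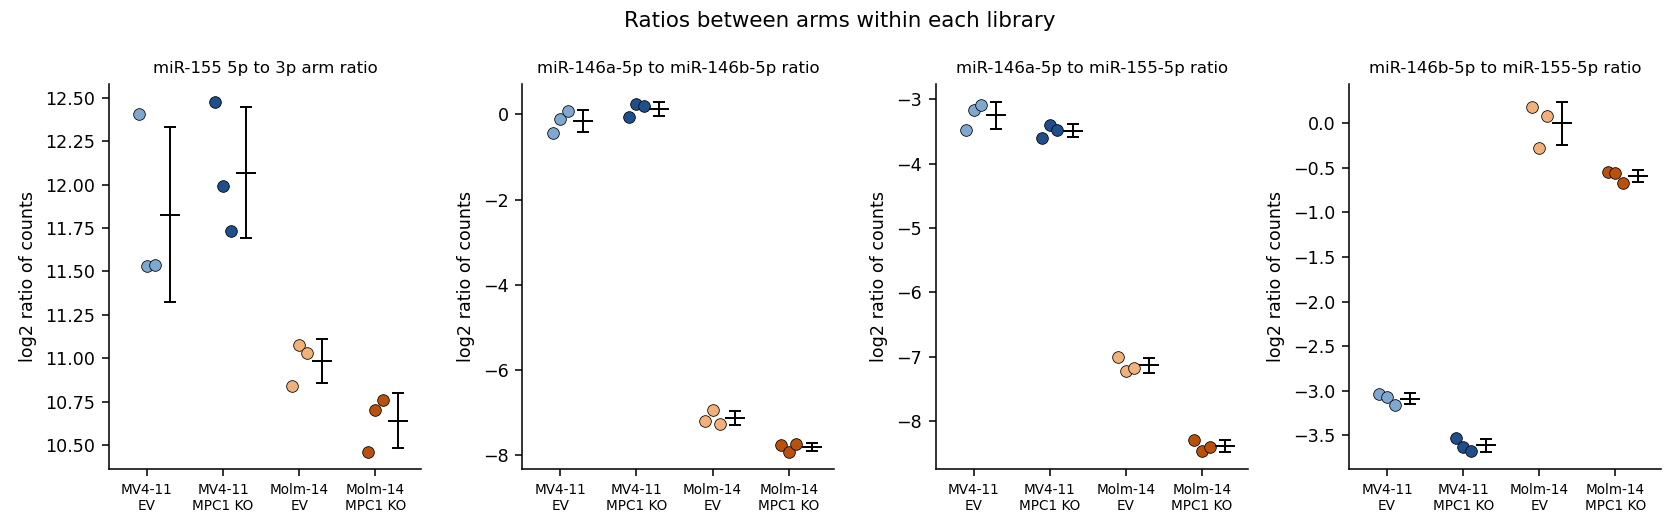
log2 ratio of counts within each library for the miR-155 arms, for miR-146a-5p to miR-146b-5p and for each miR-146 5p arm to miR-155-5p, with points for libraries and bars for the mean and SD of 3 libraries a group. The lines are apart in all 4 panels, and in Molm-14 the MPC1 KO libraries lie below the EV libraries in each.

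The likeness of the arms across the 12 libraries differed by pair. Pearson's r of log2 CPM is given as a description, since the libraries fall into 2 cell lines and share them. For miR-155-5p it was 0.03 with its own 3p arm, 0.33 with miR-146a-5p and -0.33 with miR-146b-5p. Within the 6 Molm-14 libraries, which hold the KO and EV groups apart, it was 0.94 with the 3p arm, -0.93 with miR-146a-5p and -0.14 with miR-146b-5p. Within the 6 MV4-11 libraries it was -0.14, 0.52 and 0.68. For miR-155-3p it was -0.82 with miR-146a-5p and 0.77 with miR-146b-5p over all libraries, -0.94 and -0.10 within Molm-14, and 0.55 and 0.15 within MV4-11. The miRNAs most like miR-155-5p were miR-378a-3p (r = 0.878), at a mean of 0.744 to 2.11 CPM in the groups, miR-221-5p (r = 0.836) and miR-4518 (r = 0.808). Their r was 0.68, 0.93 and 0.90 within MV4-11 and 0.96, 0.84 and 0.90 within Molm-14. Those most like miR-155-3p were miR-190a-5p (r = 0.899), miR-374a-3p (r = 0.891) and miR-3940-3p (r = 0.880). Their r was 0.66, 0.34 and 0.41 within MV4-11 and 0.78, 0.82 and 0.94 within Molm-14.

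The miR-146 arms were compared in the same way. miR-146a-5p and miR-146b-5p had an r of -0.96 with each other over all libraries, 0.90 within MV4-11 and 0.34 within Molm-14. miR-328-3p (r = 0.995), miR-421 (r = 0.995) and miR-598-3p (r = 0.994) were most like miR-146a-5p. Their r was -0.65, 0.32 and -0.07 within the 6 MV4-11 libraries and 0.81, 0.78 and 0.61 within the 6 of Molm-14. miR-598-3p was at a mean of only 0.461 CPM in Molm-14 EV and 0.182 CPM in Molm-14 MPC1 KO. miR-146b-5p was most like its own 3p arm (r = 0.994), then miR-641 (r = 0.992) and let-7a-5p (r = 0.987). Their r was 0.87, 0.98 and 0.52 within MV4-11 and 0.55, -0.08 and 0.83 within Molm-14.

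Other miRNAs linked to NF-kB and Toll-like receptor signals were read from a list of 24, of which 21 were matched by name in the table and 19 tested. The listed miR-147b-3p was among the unmatched names. A miR-147b with no arm in its name was among the tested miRNAs but was not read with the list. In MV4-11 MPC1 KO 2 rose, 1 fell and 16 did not pass, where 1.97% of all tested miRNAs rose and 1.06% fell, with a list median of -0.04 on the log2 scale beside -0.00 for all tested miRNAs. In Molm-14 MPC1 KO 1 rose, 2 fell and 16 did not pass, where 2.73% rose and 4.1% fell, with a median of -0.04 beside -0.01. In either direction, 3.03% of all tested miRNAs passed in MV4-11 and 6.83% in Molm-14. Whether the list differed from the other miRNAs was not tested.

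miR-125a-5p, which targets the NF-kB regulator TNFAIP3 (A20), went opposite ways in the lines. It rose from 248 ± 41.0 to 620 ± 1.65 CPM (SD, n = 3) in MV4-11 (log2 1.32, SE 0.13, adjusted p = 8.161e-08, edgeR) and fell from 612 ± 92.1 to 435 ± 55.2 CPM in Molm-14 (log2 -0.49, SE 0.12, adjusted p = 0.01115, edgeR). The Molm-14 call was lost without Molm-14 EV replicate 1 (-0.38, adjusted p = 0.08928) and without Molm-14 MPC1 KO replicate 2 (-0.37, adjusted p = 0.1167), and with upper-quartile scaling (-0.42, adjusted p = 0.06339). The difference of effects was -1.81 (adjusted p = 7.693e-08, edgeR).

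miR-10a-5p, which lies in the HOXB cluster and is known to restrain NF-kB in endothelium, fell from 407 ± 4.46 to 162 ± 11.2 CPM in Molm-14 (log2 -1.33, SE 0.11, adjusted p = 4.645e-09, edgeR). In MV4-11 it was at 7.30 ± 0.792 and 5.63 ± 1.19 CPM and did not pass (log2 -0.37, SE 0.19, adjusted p = 0.3854, edgeR). The difference of effects was -0.96 (adjusted p = 0.008167, edgeR), and passed in all fits with a library left out but that without MV4-11 MPC1 KO replicate 3 (-0.78, adjusted p = 0.06702).

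miR-132-3p, a miRNA induced by CREB that targets the coactivator p300, rose in both lines, from 22.4 ± 2.21 to 38.0 ± 7.78 CPM in MV4-11 (log2 0.76, SE 0.15, adjusted p = 0.003394, edgeR) and from 36.7 ± 1.29 to 51.5 ± 3.34 CPM in Molm-14 (log2 0.49, SE 0.15, adjusted p = 0.04479, edgeR). The Molm-14 call was lost without Molm-14 EV replicates 1 or 3 and without each Molm-14 MPC1 KO replicate (adjusted p up to 0.1474), and with the replicate number as a block (0.49, adjusted p = 0.05407), and the MV4-11 call without MV4-11 MPC1 KO replicate 3 (0.56, adjusted p = 0.06111). miR-21-3p, the minor arm of miR-21, fell in MV4-11 from 266 ± 44.4 to 195 ± 21.0 CPM (log2 -0.44, SE 0.12, adjusted p = 0.03893, edgeR). It kept this call in 5 of 9 other settings and in 3 of 12 fits with a library left out, and at its highest the adjusted p was 0.2266, without MV4-11 EV replicate 2. In Molm-14 miR-21-3p was also lower in every MPC1 KO library but did not pass (log2 -0.35, SE 0.12, adjusted p = 0.08017, edgeR). Its difference of effects was 0.09 (adjusted p = 0.8377, edgeR).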

How the data were processed

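The authors made small RNA libraries from total RNA of MV4-11 and Molm-14 cells, and 3 libraries were assigned to each of 4 groups (EV or MPC1 KO in each line) from the sample labels. The authors deposited raw counts of reads on each mature miRNA, without normalization. The submitters' processing notes name STAR 2.5.2, featureCounts 1.5.1 and GRCh38. How reads matching several miRNAs were treated is not given in the sources used here.

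The counts were tested with edgeR 4.0.16 (R 4.3.3): filterByExpr with a minimum count of 10 left 659 of 1204 miRNAs and at least 99.97% of any library's counts. TMM scaling (factors 0.940 to 1.08) and a quasi-likelihood fit with 1 mean per group and the robust option followed. Benjamini-Hochberg adjustment ran over the 659 miRNAs, with a threshold of 0.05. The script was tested on simulated data. Ratios within a library used counts plus 0.5 and exact two-sided permutation tests over libraries, adjusted over 21 tests; 3 libraries against 3 cannot give a p below 0.1. Likeness used log2 CPM with a prior count of 2.

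Named miRNAs were the 4 arms, their opposite arms, the listed NF-kB miRNAs past the threshold with MPC1 KO in either line, and the 3 miRNAs most correlated with each arm. The members, lists and tests were chosen with earlier results of these data known. Alternatives were other scalings and filters, DESeq2 1.42.0, limma-voom (limma 3.58.1), each line alone, the replicate number as a block, each library left out, and, added after seeing the data, the summed miR-146 5p arms. Total counts were 3870104 to 8683456, and intervals on counts cover counting error only.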

Additional observations from a re-analysis of the deposited data

Results flagged for a closer look

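For 2 of the 4 miR-155 and miR-146 arms, against 6.68% of all tested miRNAs, the effect of MPC1 deletion differed between the lines. The test was edgeR's quasi-likelihood test of the difference with Benjamini-Hochberg adjustment. For miR-155-3p, which rose in 3 of 3 Molm-14 MPC1 KO libraries and overlapped in MV4-11, the difference of log2 fold changes was 1.08 (adjusted p = 0.02631). For miR-146a-5p, which was lower in every MPC1 KO library of both lines, the difference was -0.47 (adjusted p = 0.0378), the fall being larger in Molm-14. With a library left out, the call was kept in 6 of 12 fits for miR-155-3p and in 3 of 12 for miR-146a-5p. With upper-quartile scaling the miR-146a-5p difference was -0.29 (adjusted p = 0.2826, edgeR).

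The change in the log2 ratio of miR-146a-5p to miR-146b-5p differed by -0.96 between the lines (exact permutation p = 0.01 against no effect in either line, adjusted p = 0.042 over 21 tests). The ratio was lower in 3 of 3 Molm-14 MPC1 KO libraries and overlapped in MV4-11. The call was kept in 8 of 12 runs with a library left out (adjusted p up to 0.084, exact permutation). It was lost with the replicate block (adjusted p = 0.109, sign flips).

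Among the listed NF-kB miRNAs, the effect differed for miR-125a-5p by -1.81 (adjusted p = 7.693e-08, edgeR) and for miR-10a-5p by -0.96 (adjusted p = 0.008167, edgeR).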

How the results depend on the processing

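In MV4-11, 0 of the 4 arms passed the threshold. It was 1 with DESeq2's size factors, total counts, no filter, a mean of at least 100 counts, DESeq2 and the replicate block, where 2.88%, 3.95%, 2.19%, 9.32%, 5.4% and 3.34% of all tested miRNAs passed, 2 with upper-quartile factors (3.79%), and 0 to 1 with a library left out. The number whose effect differed between the lines, 2, was 1 with limma-voom (5.92% of all) and 0 to 3 with a library left out (0 without EV replicate 2 or KO replicate 1 of MV4-11 and without EV replicate 3 or KO replicate 1 of Molm-14). miR-155-5p passed beside the same 2 arms with DESeq2's size factors, total counts and DESeq2 (6.37%, 5.92% and 9.7% of all). With upper-quartile factors it passed in place of miR-146a-5p (6.68%). Without a filter miR-155-5p and miR-146b-5p passed and miR-146a-5p did not (3.46%). With a mean of at least 100 counts miR-155-5p passed and miR-155-3p was not tested (14%). The causes were not tested. Upper-quartile factors moved the median of all miRNAs by -0.11 in MV4-11, by 0.18 for the difference between the lines and by -0.18 between the EV controls, and total counts moved it by -0.11 between the KO cells. With upper-quartile factors 40% of the calls in MV4-11 were higher, against 65% with TMM, and 56.6% against 40% in Molm-14, and 70.5% against 36.4% for the difference. Total counts gave 76.9% in MV4-11.

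Signs that turned were those of values that did not pass. miR-155-5p in MV4-11 was 0.042 with total counts and -0.16 to 0.14 with a library left out. In the KO cells of the lines it was -0.046 with total counts, -0.042 with a mean of at least 100 counts and -0.031 to 0.12 with a library left out. With a library left out, in Molm-14 miR-146b-5p ranged from -0.18 to 0.018, the summed miR-146 arms from -0.21 to 0.014 and miR-146a-3p from -0.89 to 0.11. The difference between the lines ranged from -0.61 to 0.44 for miR-146a-3p and from -0.012 to 0.24 for miR-21-3p. The miR-146a arm ratio in MV4-11 ranged from -0.043 to 0.17, the miR-146b arm ratio in Molm-14 from -0.0063 to 0.18, and the difference in the miR-146b-5p to miR-155-5p ratio from -0.20 to 0.030.

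Same-numbered libraries did not deviate together (correlations -0.127 to 0.183 over all group pairs), so the numbers were not taken as pairs. With the replicate block, by sign flips within numbers, 0 of 21 ratio tests passed against 5, with a lowest adjusted p of 0.109, since few flips are possible. The differences were then the same, at -1.14 for the miR-155 arms, -7.44, -4.39 and 3.06 for the other ratios between the lines, and -0.96 for the effect on miR-146a-5p per miR-146b-5p. The last ranged from -1.07 to -0.81 with a library left out and did not pass in 4 of 12.

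The number of all miRNAs past the threshold was 12 to 38 in MV4-11 with a library left out, against 20, and 22 to 53 for the difference, against 44. Between the lines it fell from 408 to 212 (EV) and from 411 to 214 (MPC1 KO) with a mean of at least 100 counts, where fewer miRNAs were tested. miR-155-3p rested on 36 to 148 counts a library and miR-146a-3p in Molm-14 on 1 to 5. No other depth was tried.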
